A study of Mus musculus with 2 samples.

Results

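Notch signalling was represented on the arrays by 4 receptors (Notch1, Notch2, Notch3 and Notch4), 4 ligands (Dll1, Dll4, Jag1 and Jag2) and 2 target genes (Hes1 and Hey1). These 10 genes were taken by name with every probe that carries such a name, which gave 13 of the 39429 probes, while the array as a whole gave values for 29982 genes. Notch receptors are membrane proteins activated by Delta-like and Jagged ligands on neighbouring cells. Ligand binding leads to cleavage by an ADAM protease and gamma-secretase, and the freed intracellular domain joins RBPJ and a Mastermind protein in the nucleus to activate genes such as those of the Hes and Hey families. The pathway is known for cell fate choices between neighbouring cells, and in vessels and muscular tubes for the specification of endothelial and mural cells.

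RNA was extracted from pooled ureters of NMRI mouse embryos at E16.5 and compared on 2 dual-colour oligonucleotide arrays. Each array carried a Pparg-cKO pool, genotype Pax2-cre/+; Pparg(fl/fl), and a control pool labelled Pparg(fl/?), which the methods describe as littermates without cre. Array 1 held female and array 2 male pools, so that 4 pools were measured, 1 per genotype and sex. The second channel's stage label reads E14.5, against E16.5 in the titles and the first channel. Both groups carry the floxed allele, whose exons the Pax2-driven cre removes in the epithelium that descends from the nephric duct, so the surrounding mesenchyme, vessels and nerves keep Pparg in either group. In such bulk tissue, fewer cells of a type and less RNA per cell cannot be told apart.

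The genotype behind each dye is not settled. RNA A is the RNA in red (AlexaFluor647) on array 1 and in green (AlexaFluor555) on array 2. By the labels it is the control. The fold changes the authors deposited follow RNA A over RNA B (Pearson r = 0.997 over probes that read 100 or more in both dyes, on each array), so RNA A would be the Pparg-cKO if those are mutant over control, the order in which the sample titles name the groups (Pparg-cKO vs control). The titles do not say which way the values were computed. RNA B is the other RNA. Every ratio below is log2 of RNA A over RNA B, and the direction in terms of genotype is left unstated. Because the dyes were exchanged between a female and a male array, dye and sex cannot be told apart.

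Whole-array values set the scale. Between 70.4% and 80.4% of spots were well above background, depending on dye. Pparg itself read brighter in RNA A on both arrays (log2 ratio 0.60 and 0.71), past the filter described next but not called by limma (adjusted p = 0.615), with a probe from base 1562 of its transcript, far from the exons at the start of the coding sequence that cre removes, so it does not report their loss. The uroplakin genes of the superficial urothelial cells marked the tissue as holding urothelium. All 5 leaned to RNA B on both arrays, against 17.4% of genes tested. Upk1a, Upk3a and Upk3b passed the same filter, as 0.23% of all genes did towards RNA B. Of these, limma called Upk1a (adjusted p = 0.045) and Upk3b (adjusted p = 0.020). Markers of the ureteric mesenchyme were all above background (5 of 5), and those of the nephron in part (4 of 7).

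None of the 10 Notch genes differed between RNA A and RNA B by either criterion. The filter asked each array for a ratio of 1.5-fold or more towards the same RNA and a processed signal of 100 or more in the brighter one, and 0 of 10 genes passed. Among all 29982 genes it was passed by 47 towards RNA A (0.157%) and 69 towards RNA B (0.23%). All of these lay among the 21429 genes above background, as the 10 do, so a count of 0 among 10 is near what all genes gave. limma with Benjamini-Hochberg adjustment over the 21429 genes above background called 0 of 10, each at an adjusted p of 1.00, against 27 genes towards RNA A (0.126%) and 40 towards RNA B (0.187%). At an unadjusted limma p under 0.05 the count of Notch genes was also 0. Of the 21429 genes tested, 359 reached it towards RNA A and 451 towards RNA B, so 0 of 10 is again near what all genes gave. With 2 arrays an exact sign-flip test cannot go below p = 0.5. The limma p-values set each mean against the spread between the 2 arrays, in which dye, sex and pool are mixed. That spread is moderated towards a value shared by all genes tested (7.59 prior degrees of freedom).

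All members had a probe well above background in both RNAs on both arrays. A selection of the probes that carry the results below is printed. Each is shown by the first 30 of its 60 bases, 5′ to 3′ on the transcript strand, with adenines in capitals. The labelled antisense RNA carries a uridine opposite each adenine, and the dyes were attached through aminoallyl-UTP, so these positions are where dye can sit. Positions are of build mm9 as in the array files. Whether they are coding or untranslated was not analysed here.
Notch1, brighter probe, chr2:26319470-26319499, minus strand: tcctgcAgtggAgggggccttgAgAcAggc
Notch1, dimmer probe, chr2:26314660-26314689, minus strand: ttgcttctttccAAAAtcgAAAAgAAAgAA
Notch2, brighter probe, chr3:97953914-97953943, plus strand: ccActtgAAgtcttgcAtAgAAAtgAAccA
Notch2, dimmer probe, chr3:97951233-97951262, plus strand: tcttcAccAcActctgcAtctgActggtcA
Notch3, chr17:32257878-32257907, minus strand: gcctAAtAgAAAtgtttttAggctgttttt
Jag2, chr12:114146917-114146946, minus strand: ttgtAtAAAttAttcAAcggctgtcAggcg
Hes1, chr16:30067820-30067849, plus strand: ttAAAAtAtcttcctttggggAAgtttAtt
Hey1, chr3:8663462-8663491, minus strand: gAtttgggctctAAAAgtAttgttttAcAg
These were chosen because Notch1 and Notch2 have a pair of probes that can be set against each other, Notch2, Notch3, Jag2 and Hes1 turned sign between the arrays, and Hey1 did not. Notch4, Dll1 and Dll4 also turned sign, Jag1 did not, and Dll1 also has a second probe, but their probes are not printed. Over their full length, the brighter Notch1 probe holds 18 adenines, the dimmer one 26 and the Notch3 probe 13. Signals of different probes are not compared with each other, since probes differ in how they bind and label.

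Of the receptors, Notch1 and Notch2 are broadly expressed, Notch3 is known from vascular smooth muscle and pericytes, and Notch4 from endothelium. The processed signals of Notch1 on the female array were 103 (RNA A) and 109 (RNA B), and on the male array 165 and 192. RNA B was slightly brighter on both arrays, at log2 ratios of -0.08 and -0.22 and a mean of -0.15 ± 0.10 (SD, n = 2 arrays). The limma 95% interval of that mean ran from -0.60 to 0.30. The second Notch1 probe read 35.7 (RNA A) and 56.2 (RNA B) for the female and 48.0 and 53.5 for the male pools, again brighter in RNA B on both, with a mean of -0.41 ± 0.35. Its ratio on array 1, -0.65, came with a spread of 0.19 (SD of 4 spots), and all 4 signals lay below 100, so it could not enter the filter.

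Notch1 was also the gene of the 10 whose signal differed most between the arrays. Averaged over both RNAs, which puts each dye once on each array, its signal was higher on array 2 by 0.75 on the log2 scale. That size of change was reached or exceeded by few genes (98.3rd percentile of its absolute value among 21429), whose median change was 0.08. Its second probe moved by 0.43 in RNA A and by -0.07 in RNA B. The arrays were normalized separately, and array, sex and pool cannot be told apart here. For the other 9 genes this change lay between -0.35 (Dll1) and 0.31 (Jag2).

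Notch2 reversed between the arrays. RNA A read 1465 and RNA B 2019 on the female array, but 1988 and 1630 on the male array. The log2 ratios were -0.46 and 0.29, each many times the spread of its spots (SD 0.011 and 0.027), and the mean was -0.09 ± 0.53. In both cases the green channel was the brighter one. The second Notch2 probe read between 8.03 and 10.3 in all 4 channels with ratios of 0.02 and -0.35, the opposite order of signs, at a spot SD of 0.62 on array 1.

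Notch3 followed the same course as Notch2. RNA A read 1174 against 1696 for RNA B on array 1, and 1815 against 1646 on array 2, or -0.53 and 0.14 as log2 ratios (mean -0.19 ± 0.48). RNA A on array 1 stood apart from the other 3 values, which lay within 1646 to 1815. The arrays were normalized separately and this RNA was in red there, so such a comparison across arrays does not single out a pool. Markers of smooth muscle and pericytes were measured beside it because these cells are known to carry Notch3. All 9 were above background. On both arrays Acta2, Tagln, Myocd, Cnn1 and Myh11 were brighter in RNA B (5 of 9, against 17.4% of genes tested). Each had an unadjusted limma p under 0.05, reached towards RNA B by 451 of 21429 genes tested. None of the 5 passed the filter or the adjusted threshold. Rgs5, a pericyte marker, had ratios of 0.11 and -0.11. The other 3 markers turned sign between the arrays in the same order as Notch3, Pdgfrb at -0.32 and 0.30, Cspg4 at -0.40 and 0.21 and Des at -0.44 and 0.19. Summed over the 9, RNA A gave 78943 and RNA B 97216 on the female array, and 73685 and 125010 on the male array. Acta2 made up most of each sum, and the part of these markers in the Notch3 values was not tested.

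For Notch4, RNA A and RNA B read 407 and 426 in female pools and 534 and 448 in male pools. The ratios were -0.06 and 0.26 with a mean of 0.10 ± 0.23, and the 95% interval, -0.37 to 0.56, stayed inside 1.5-fold. Notch4 is known from endothelium, and all 10 endothelial markers were above background, with 0 past the filter or limma and none at an unadjusted p under 0.05. Summed, they gave 18315 (RNA A) and 16507 (RNA B) for the female pools, 17990 and 17516 for the male pools. Their median log2 ratios were 0.21 and 0.05.

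**Figure D1:**
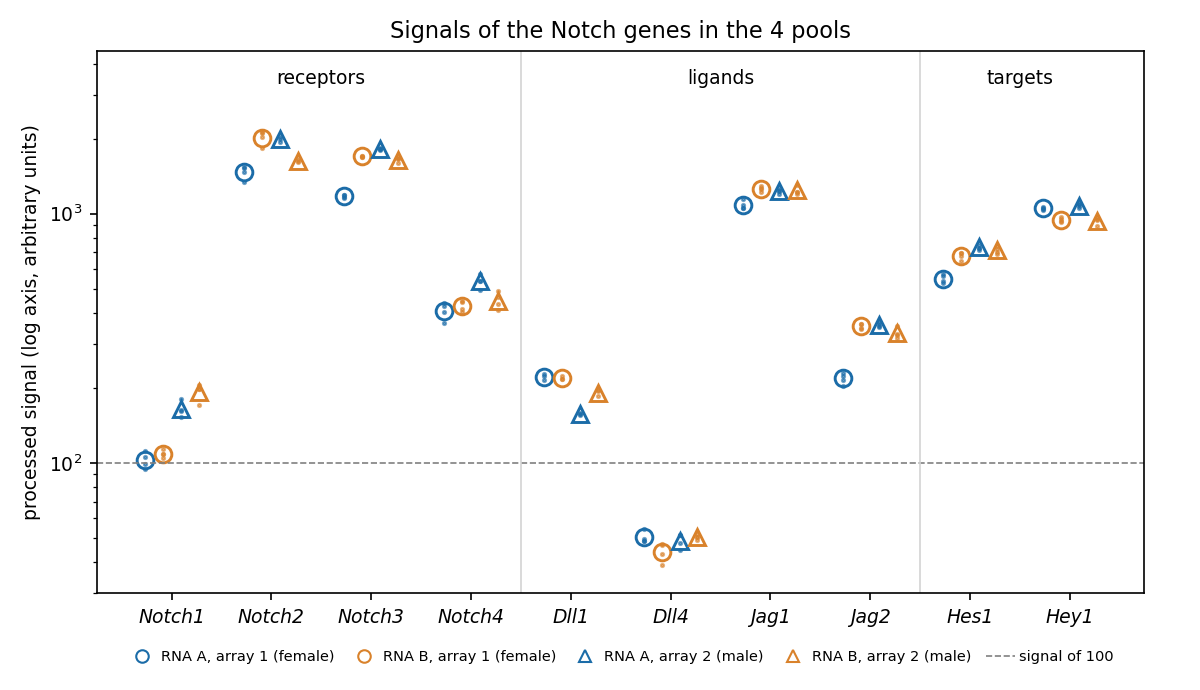
Processed signal (log axis, arbitrary units) of each Notch gene at its brightest probe in the 4 pools. Open circles are array 1 (female), open triangles array 2 (male), blue RNA A and orange RNA B. Small dots are single spots and the dashed line is a signal of 100. The RNA A circle is the lowest of the 4 symbols for Notch1, Notch2, Notch3, Notch4, Jag1, Jag2 and Hes1. How many of all genes share this order was not counted. Notch1 is higher on array 2 in both RNAs.

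Among the ligands, Dll1 and Dll4 belong to the Delta-like family and Jag1 and Jag2 to the Jagged family. Dll1 read 222 (RNA A) and 219 (RNA B) in female pools, then 157 and 191 in male pools. The first pair differed by less than the spread of its 3 kept spots (log2 ratio 0.02, spot SD 0.045), and the second favoured RNA B (-0.29, spot SD 0.037), for a mean of -0.13 ± 0.22. A second Dll1 probe, for another transcript, was not well above background in any channel. Dll4, the main Notch ligand of arterial and sprouting endothelium, read 50.3 (RNA A) and 44.0 (RNA B) for female and 48.7 and 50.5 for male pools. These signals were under the filter's minimum of 100, and the ratios of 0.19 and -0.05 (mean 0.07 ± 0.17) were within 2 spot SDs of 0 on either array.

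Jag1, an essential ligand in vessels and many epithelia, leaned to RNA B on array 1 and hardly at all on array 2. RNA A and RNA B read 1083 and 1255 in the female, 1228 and 1239 in the male pools, giving log2 ratios of -0.21 and -0.01 and a mean of -0.11 ± 0.14. The 95% interval, -0.57 to 0.34, stayed inside 1.5-fold.

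Jag2 had the most uneven pair of arrays of all members. RNA A read 218 against 353 for RNA B in the female pools, and 358 against 331 in the male pools. On array 1 RNA B was 1.62-fold brighter (log2 ratio -0.69, spot SD 0.091), and on array 2 RNA A was brighter by 0.12 (spot SD 0.089). As with Notch3, 3 of the 4 values lay close together (331 to 358) and RNA A on array 1 was below them, with the same limit across arrays. Jag2 was the only member past 1.5-fold with a signal of 100 on array 1 alone, where 958 of 29982 genes were (3.2%). On array 2 alone 0 members passed, against 789 genes (2.63%). The mean was -0.29 ± 0.57 with a 95% interval from -0.84 to 0.26, and 88.1% of genes tested had a mean of the same absolute size or less.

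The targets Hes1 and Hey1 encode basic helix-loop-helix repressors whose transcripts commonly serve as a readout of Notch activity. Hes1 read 549 (RNA A) and 677 (RNA B) in female pools, and 732 and 712 in male pools. The female ratio, -0.30, was many times its spot SD of 0.021, the male one was 0.04, and the mean was -0.13 ± 0.24. Again RNA A on array 1 was the low value of the 4, across arrays that were normalized separately.

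Hey1 was the only member brighter in RNA A on both arrays. Its signals were 1050 (RNA A) and 945 (RNA B) for females, 1077 and 937 for males, so that the RNA A values lay above both RNA B values. The log2 ratios were 0.15 and 0.20, both over 3 spot SDs from 0, and the mean was 0.18 ± 0.035, or 1.13-fold. This was the smallest spread between arrays of the 10 genes. The limma interval, -0.27 to 0.62, still held 0 (unadjusted p = 0.394), and 72.8% of genes tested had a mean of that absolute size or less.

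**Figure D2:**
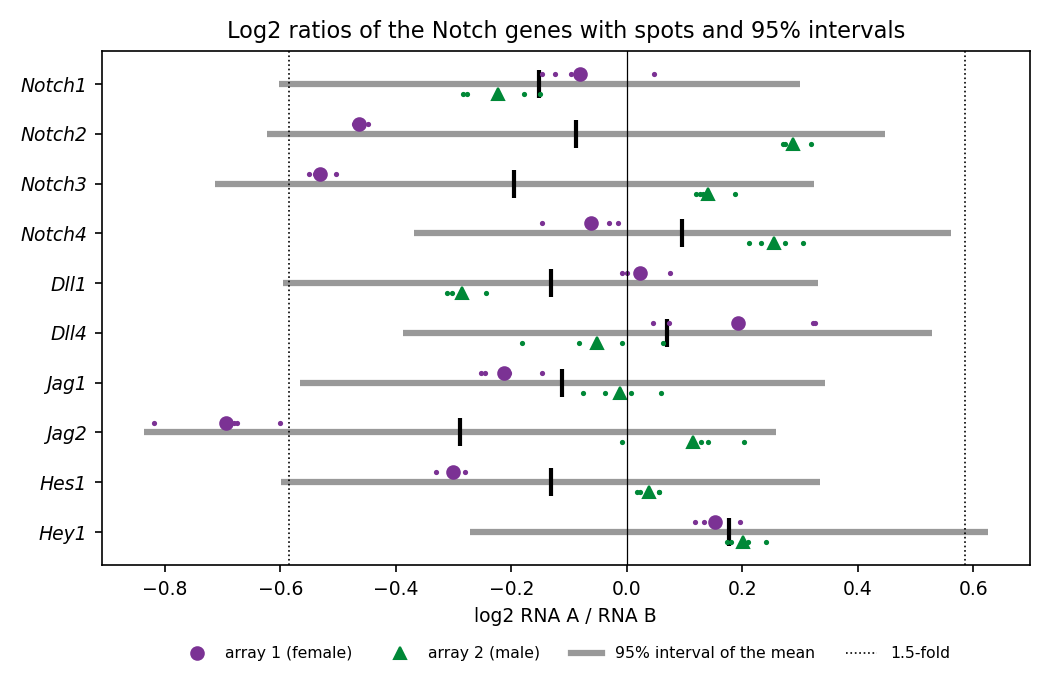
Log2 ratio of RNA A over RNA B of each Notch gene. Large circles are array 1 (female), triangles array 2 (male), small dots single spots, black ticks the mean of both arrays and grey bars limma's 95% interval of the mean, with dotted lines at 1.5-fold; every bar crosses 0, and those of Notch4, Dll4 and Jag1 stay between the dotted lines.

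Across the members, 10 of 10 intervals held 0, 3 (Notch4, Dll4 and Jag1) stayed inside 1.5-fold in either direction and 10 inside 2-fold. The mean ratios ran from -0.29 for Jag2 to 0.18 for Hey1, with a median of -0.12, against 0.01 over all genes tested. By array, the median of the members was -0.15 on array 1 and 0.08 on array 2, where all genes had medians of -0.00038 and 0.03. The receptors were the furthest from level, at -0.27 on array 1 and 0.20 on array 2. On array 1, 7 of 10 members were below 0, and on array 2, 4 of 10. The spots of a gene agreed more closely than the arrays did. The ratio was over 3 spot SDs from 0 for 6 members on array 1 and for 6 on array 2, although the arrays' signs differed for most of them.

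Because the dyes were exchanged, a difference between the RNAs that both sexes share would give ratios of the same sign on both arrays. A difference between the dyes, or one between the RNAs that runs opposite ways in the sexes, would give ratios of opposite sign. A plain difference between the sexes cancels in these ratios, as both pools of an array are of the same sex. Ratios near 0 can take either pattern from variation between spots or pools alone, and 13071 of the 21429 genes tested had opposite signs. The part of dye, sex and pool in any gene's sign was not tested. Only Hey1 was brighter in RNA A on both arrays (1 of 10, against 21.6% of genes tested), and Notch1 and Jag1 were brighter in RNA B on both (2 of 10, against 17.4%). Notch2, Notch3, Notch4, Jag2 and Hes1 were brighter in green on both arrays (5 of 10, against 32.6%), and Dll1 and Dll4 in red (2 of 10, against 28.4%). Some small ratios changed class with the scaling. With normexp background correction and loess, Dll1 on array 1 (-0.04) and Hes1 on array 2 (-0.01) turned negative, and in the authors' deposited values Dll1 on array 1 (-0.03) and Jag1 on array 2 (0.03) changed sign. The classes of the other 7 genes held under each of the 4 other scalings run.

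**Figure D3:**
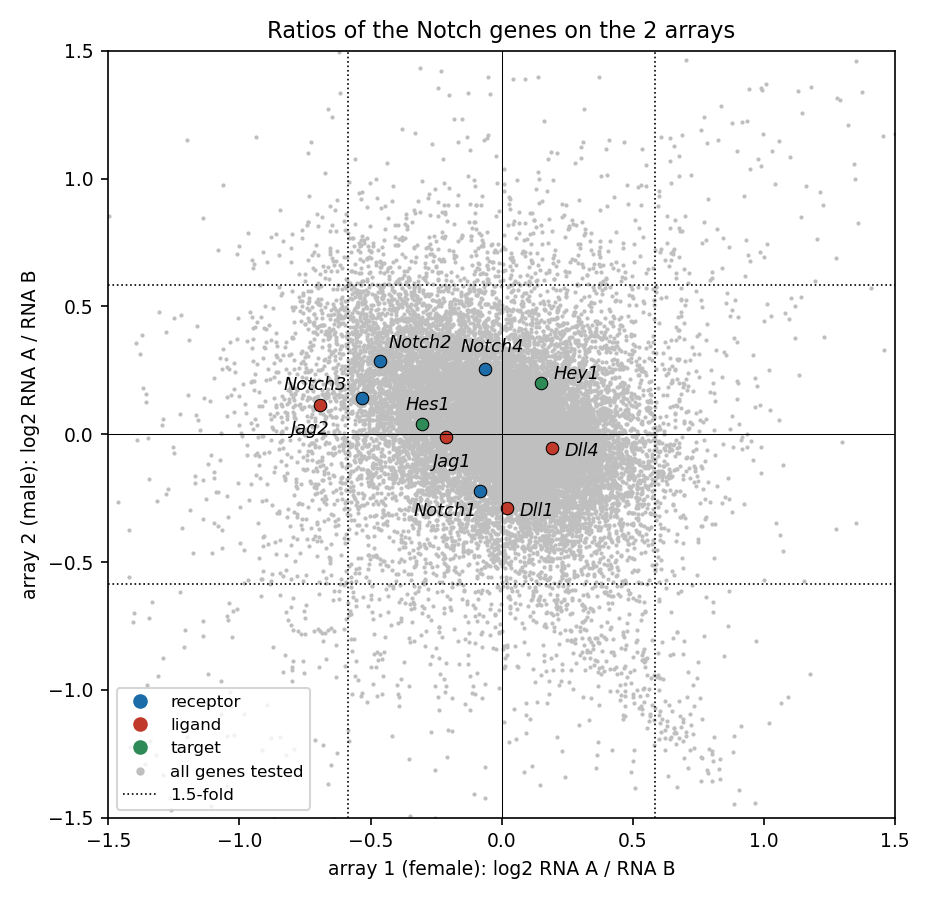
Log2 ratio of RNA A over RNA B on array 2 (male) against that on array 1 (female). Each grey dot is 1 of the 21429 genes tested (121 lie outside the frame), coloured points are the Notch genes by role and dotted lines mark 1.5-fold; 5 Notch genes lie in the upper left part, and none lies beyond the dotted lines on both axes.

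The rest of the pathway was followed in 44 further genes, of which 43 were tested (Aph1c had no probe). None passed the filter, none was called by limma and 0 had an unadjusted limma p under 0.05. Of all genes, 0.157% and 0.23% passed the filter towards RNA A and RNA B, and limma called 0.126% and 0.187% of those tested. An unadjusted p under 0.05 was reached by 359 and 451 of 21429, so each count of 0 among 43 is near what all genes gave. Their median ratio was -0.18 for the female and 0.18 for the male array, and the median of the means was -0.02. Opposite signs on the arrays were found in 30 of 43, against 13071 of 21429 genes tested. In 26 of 43 (60.5%) green was the brighter dye on both arrays and in 4 (9.30%) red, against 32.6% and 28.4% of genes tested. RNA A was brighter on both arrays for 7 and RNA B for 6, against 21.6% and 17.4%. The means spanned -0.40 (Dtx3) to 0.36 (Dll3).

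**Figure D4:**
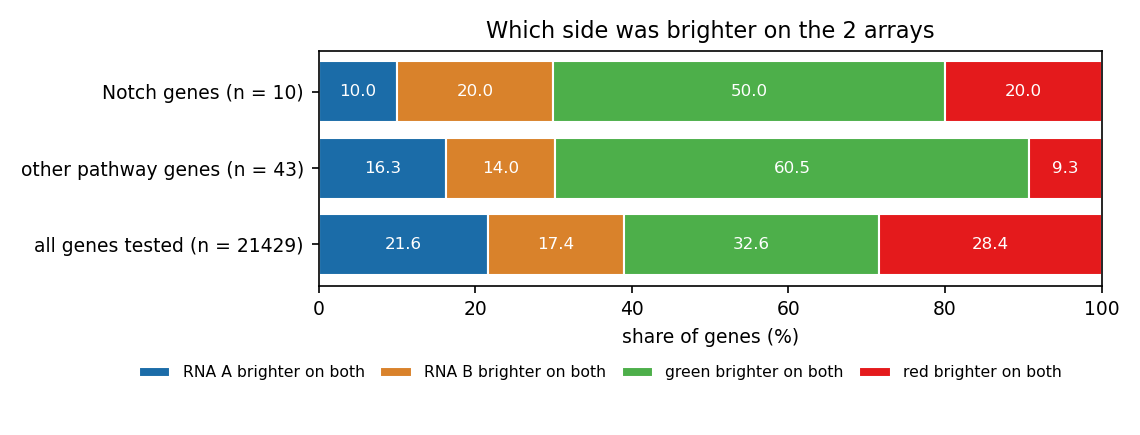
Share of genes (%) by which side was brighter on both arrays, for the 10 Notch genes, 43 other pathway genes and all 21429 genes tested. Blue and orange are ratios of the same sign on both arrays, towards RNA A or RNA B, and green and red ratios of opposite sign, with that dye the brighter one on both; green on both arrays holds 50.0%, 60.5% and 32.6%.

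Among further ligands and related membrane proteins, Dll3, a Delta-like protein that acts in the signal-receiving cell, had the highest mean of the pathway at 0.36 ± 0.24. RNA A and RNA B read 89.0 and 61.8 in female, 86.3 and 76.0 in male pools, brighter in RNA A on both but below 100 throughout. Dner, an atypical ligand of neurons, had the lowest of this subgroup at -0.09 ± 0.57. The Fringe glycosyltransferases modify the receptor's extracellular repeats and set which ligands it answers. Mfng was highest at 0.17 ± 0.49 and Rfng lowest at -0.21 ± 0.51, and both turned sign between the arrays.

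Receptor cleavage was represented by 8 tested genes. Adam17, a sheddase, was highest at 0.14 ± 0.15, and Ncstn, the nicastrin subunit of gamma-secretase, lowest at -0.34 ± 0.29 with signals between 31.5 and 45.7.

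In the nuclear complex, Rbpj, the DNA-binding partner of the Notch intracellular domain, was highest at 0.12 ± 0.45. RNA A read 2387 against 2745 for RNA B on array 1, and 3220 against 2382 on array 2, so that its order reversed as that of Notch2 did. Spen, a corepressor that binds RBPJ, was lowest at -0.32 ± 0.31 and was brighter in RNA B on both arrays (log2 ratio -0.54 and -0.11).

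Of the genes for endocytosis and turnover, Mib1, the ubiquitin ligase that ligands need for their uptake, was highest at 0.15 ± 0.092, and Dtx3, of the Deltex family of ubiquitin ligases, lowest at -0.40 ± 0.12. Dtx3 read 786 (RNA A) and 1101 (RNA B) in female, 1100 and 1371 in male pools, brighter in RNA B on both arrays but under 1.5-fold on each. Of this subgroup, Dtx1 (log2 ratio -0.74) and Neurl1a (-0.63) were past 1.5-fold with a signal of 100 on array 1 alone, where 3.2% of all genes were. On array 2 alone 0 of the 43 pathway genes were, against 2.63% of all genes, so this 0 is near what all genes gave. Dtx1 stood at 0.53 in the opposite direction on array 2.

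None of the 5 further targets passed a test either. Nrarp, a feedback inhibitor of Notch, was highest at 0.21 ± 0.30, reading 510 (RNA A) and 511 (RNA B) in female, 651 and 485 in male pools. Heyl was lowest at -0.02 ± 0.28. The RBPJ core TGGGAA, searched on both strands, lay in the 300-base promoter windows (250 bases before to 50 after the start, RefSeq, GRCm38.p6) of Hes5, Hes7 and Hey2 and not in that of Nrarp. It lay in 0 of 9 windows of the 8 members that matched the listing, which are the receptors and ligands (Hes1 and Hey1 were not matched), and in 25.6% of all 32851 windows. A match is only a run of letters in this window. Hes5 and Hey2 are printed with the core in capitals, as targets chosen for the motif and not for their values.
Hes5, chr4:154960829-154960858, plus strand: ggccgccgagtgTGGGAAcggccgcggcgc
Hey2, chr10:30842769-30842798, minus strand: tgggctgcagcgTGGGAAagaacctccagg
Hes5 read 24.2 (RNA A) and 34.5 (RNA B) in female, 27.7 and 19.7 in male pools, at a mean log2 ratio of -0.01 ± 0.71. Hey2 read 136 and 120 in female, 140 and 137 in male pools, at a mean of 0.10 ± 0.11. Neither differed beyond the spread between arrays by limma (adjusted p = 1.00).

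**Figure D5:**
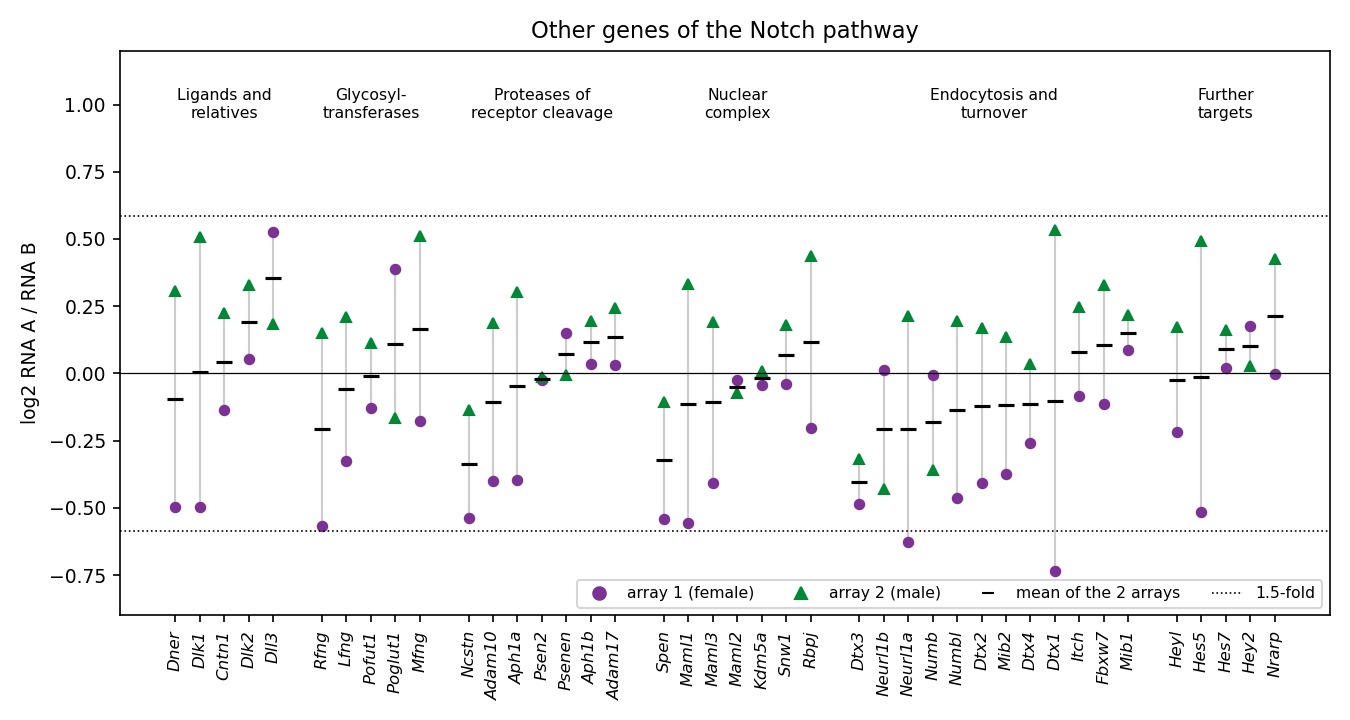
Log2 ratio of RNA A over RNA B of 41 other genes of the Notch pathway, grouped by function and ordered by mean. Circles are array 1 (female), triangles array 2 (male), ticks the mean of both and dotted lines 1.5-fold; circles lie mostly below 0 and triangles mostly above it, and no gene has both symbols beyond the same dotted line.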

How the data were processed

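Labelled cRNA of 4 pools was hybridized to 2 dual-colour arrays of the same slide and scan. Per the file headers, Agilent Feature Extraction 10.7.3.1 produced the deposited processed intensities: background was subtracted, values near it were set to surrogates (7.98% and 8.22% of green spots, 15.2% and 15.1% of red) and dyes were balanced linearly, then by LOWESS. The deposited log10 ratios served to check the dyes. The signed fold changes that the authors deposited as values (median 1 on both arrays; titles read Pparg-cKO vs control, computed direction not stated) served as an alternative.

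Control spots and 5705 and 5579 outlier-flagged spots were left out, no spot was saturated, and log2 signals were averaged over the kept spots of a probe. A gene took its brightest probe. It was tested where at least 0.5 of its spots were well above background on both arrays in 1 RNA or more. Names came from the RefSeq listing of GRCm38.p6 for 28293 of 39381 probes with values on both arrays, otherwise from the files, whose coordinates are mm9. limma 3.58.1 (R 4.3.3; intercept, eBayes) was applied to the 2 log2 ratios, with Benjamini-Hochberg adjustment at 0.05, after tests on simulated data. The data.table package 1.17.8, pandas 2.3.3 and matplotlib 3.10.9 were used.

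All members were named. Of the other pathway genes, the highest and lowest mean of each subgroup were named, and others where stated. Single values of 2 other pathway genes are not reported here. Members and lists were chosen with earlier results of these data known. Alternatives were normexp (offset 50) with loess, loess, median centring, the authors' values, other probe, spot, signal and fold rules, an intensity trend, no filter on dim probes, channels fitted without pairing and each array left out. The dimmer probes were added after seeing the data. Only 2 arrays limit the precision.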

Additional observations from a re-analysis of the deposited data

Results flagged for a closer look

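For 7 of the 10 Notch genes the female and the male array gave log2 ratios of RNA A over RNA B of opposite sign. The female minus the male ratio was -0.75 for Notch2, -0.67 for Notch3, -0.32 for Notch4, -0.81 for Jag2 and -0.34 for Hes1, and it was 0.31 for Dll1 and 0.24 for Dll4. Of the other pathway genes, 30 of 43 had opposite signs, against 13071 of 21429 genes tested. With 1 array per sex and the dyes exchanged between the arrays, these differences were not tested, and dye and sex cannot be told apart.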

How the results depend on the processing

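The count of Notch genes past the filter was 0 under every alternative except the array left out, where it ranged from 0 to 1 (Jag2, without array 2), and for the other pathway genes it ranged from 0 to 3 in the same way. limma called 0 Notch genes under each of its alternatives, and the members' adjusted p was 1.00 under every scaling, probe and spot alternative. No replicate block, that is, the 4 channels fitted as separate samples without the array as a block, also gave 0. Notch genes with the same sign on both arrays numbered 3 as reported and 5 with normexp and loess (Dll1 and Hes1 added), 4 with the mean over all probes (Notch2 added) and 3 with the authors' values (Dll1 in place of Jag1). The median of the other pathway genes was -0.02 as reported, 0.18 without array 1 and -0.18 without array 2. The mean of 7 members changes sign when an array is left out, as their arrays differ in sign. The dimmer probes gave -0.41 for Notch1 and -0.16 for Notch2. Depth is not defined for arrays; Dll4, Dll3, Ncstn and Hes5 had signals under 100, where background subtraction weighs most.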
